A study of Mus musculus with 3 samples.

Results

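The integrated stress response genes described here are 34 of the 32285 genes measured in mouse embryonic stem cells exposed to tubercidin. They were taken by symbol, as transcription factors (7 genes), stress effectors and feedback regulators (6), amino acid and one-carbon enzymes (8), amino acid transporters (5), aminoacyl-tRNA synthetases (7) and 1 lipoprotein receptor. All cells were E14 mouse embryonic stem cells, a line of 129/Ola background, cultured on gelatin in medium with serum and leukaemia inhibitory factor. One group received 10 uM tubercidin for 3 h and another 10 uM tubercidin for 6 h. The control group received DMSO, the solvent, for 6 h, so the 3 h group has no control of its own exposure time. Tubercidin is an adenosine analogue that cells phosphorylate and can build into nucleic acids. Each group is 1 library of single cells (10x Genomics 3' v3 chemistry), so the spread between cultures could not be measured, no difference was tested, and every interval below is an exact 95% interval that covers counting error only.

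In the integrated stress response, kinases such as GCN2, PERK, PKR and HRI phosphorylate the initiation factor eIF2, which lowers translation in general and favours translation of ATF4. ATF4 pairs with C/EBP family partners and induces genes for amino acid synthesis, uptake and tRNA charging, together with factors such as CHOP (Ddit3) that carry the response on or, like Ppp1r15a, restore eIF2. The regulator mRNAs are commonly short-lived, whereas those of the metabolic enzymes and synthetases tend to persist. Stem cells in culture use the serine and one-carbon branch for nucleotide synthesis.

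ATF4 dimers read a composite element whose core is often written TGATGNAA. This 8-base core was searched on both strands, overlaps included, from 250 bases before to 50 bases after each RefSeq start (build GRCm38.p6). It was present at 10 of the 28 member genes with a promoter sequence (35.7%), against 1219 of 27025 genes in the table (4.51%). By promoter the shares were 10 of 31 and 1304 of 32851 (32.3% and 3.97%). The members were listed as genes of the ATF4 response, so theirs is not the share of an unselected set. The match is a description of letters and not a measurement of binding. Sites are given with 10 bases on each side, read 5′ to 3′ on the strand that spells the core, which stands in capitals, so that the members with low RNA after tubercidin can be set beside those that held their level. Sites of 9 of the 10 genes are printed. The first 4 belong to members whose 6 h ratio was at least 2-fold lower, of which Chac1, Vldlr and Atf3 averaged under 10 CPM. The rest belong to members within 2-fold of the control, and Slc7a11 among them had few UMIs. The core was not found in these windows at Atf4, Ddit3, Cebpg, Psph and Cebpb, which were also at least 2-fold lower at 6 h. Of these, Cebpb averaged under 10 CPM.
Chac1 chr2:119351039-119351066, minus strand: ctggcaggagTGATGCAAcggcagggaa
Vldlr chr19:27216810-27216837, minus strand: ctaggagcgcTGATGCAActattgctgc
Atf3 chr1:191183426-191183453, plus strand: gcggacttggTGATGCAAgtgcgagaag
Trib3 chr2:152344029-152344056, plus strand: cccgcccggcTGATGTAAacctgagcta
Nupr1 chr7:126625563-126625590, plus strand: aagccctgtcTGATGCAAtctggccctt
Asns chr6:7693215-7693242, minus strand: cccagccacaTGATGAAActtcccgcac
Pycr1 chr11:120643834-120643861, minus strand: gccctgtgtaTGATGCAAtgcacaaggc
Gars chr6:55037961-55037988, minus strand: gcccggtgcaTGATGAAAtagcgcagcc
Slc7a11 chr3:50443662-50443689, minus strand: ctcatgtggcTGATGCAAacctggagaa

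Slc7a11 held a second site, and Vldlr held its site at 1 of its 2 starts. Of the 12 sites found over all members, 8 read TGATGCAA, 3 TGATGAAA and 1 TGATGTAA. The same 8 letters stood 193 bases before the start of Chac1 and 110 bases before that of Nupr1, a gene with a higher level after tubercidin. The 250 bases before the start of these genes are given with the core in capitals on the gene's own strand, where it reads as its reverse complement.
Chac1 chr2:119350992-119351241, plus strand: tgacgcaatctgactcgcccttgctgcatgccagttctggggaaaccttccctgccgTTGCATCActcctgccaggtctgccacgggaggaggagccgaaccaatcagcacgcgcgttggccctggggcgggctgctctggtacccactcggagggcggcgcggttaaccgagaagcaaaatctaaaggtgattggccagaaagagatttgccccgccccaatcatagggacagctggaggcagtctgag
Nupr1 chr7:126625471-126625720, minus strand: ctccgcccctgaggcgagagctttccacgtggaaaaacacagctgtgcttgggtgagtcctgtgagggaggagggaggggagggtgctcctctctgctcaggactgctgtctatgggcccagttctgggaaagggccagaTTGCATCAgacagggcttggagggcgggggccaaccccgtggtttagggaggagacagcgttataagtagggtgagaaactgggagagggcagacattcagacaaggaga

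The 3 libraries differed in depth before any gene is considered. Called cells numbered 2031, 2365 and 2926 in the control, 3 h and 6 h libraries, with medians of 48452, 11877 and 8004.5 UMIs (unique molecular identifiers, 1 per captured RNA molecule). Sequencing depth and RNA per cell cannot be told apart here, so genes were compared as CPM, a gene's UMIs scaled to a fixed total over the library's cells, which measures a gene's share of the RNA. All 12 stem cell markers were detected in each library, with 137, 159 and 213 CPM of Pou5f1 and 205, 80.6 and 81.1 CPM of Sox2 in the control, 3 h and 6 h. Summed markers of 2-cell-like, fibroblast, primitive endoderm and trophoblast cells ranged from 0 to 58.6 CPM against 4182 to 5528 CPM for the stem cell markers. The libraries shared 1 cell barcode in each pair.

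A gene was counted as lower or higher when its ratio of CPM + 1 passed 2-fold and its CPM averaged 10 or more across the libraries, which 7884 genes did. Of the members, 29 reached that level and 5 did not (Atf3, Cebpb, Chac1, Slc7a11 and Vldlr). At 3 h, 5 of 29 were at least 2-fold lower than the control (Atf4, Ddit3, Cebpg, Ddit4 and Ppp1r15a), against 5.54% of all genes. At 6 h, 5 of 29 were at least 2-fold lower (Atf4, Ddit3, Cebpg, Trib3 and Psph), against 4.41% of all genes. Ddit3 was under 10 CPM at both tubercidin times, so it entered the count only through the control, where it is high. Ddit4 and Ppp1r15a were under 10 CPM at 3 h, where they were called, and at 10.0 and 10.6 CPM at 6 h. They too reached the mean only through the control. The counts of lower members are therefore a description. No member was at least 2-fold higher at either time, where 0.888% and 2.33% of all genes were. With median-of-ratios scaling the 3 h count was 4, since Atf4 stood at a log2 ratio of -0.98, and 166 genes of all were lower and 139 higher in place of 437 and 70.

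The calls fell differently over the roles, a difference that was not tested. Of the 10 transcription factors and effectors that reached the mean, 5 were at least 2-fold lower at 3 h and 4 at 6 h. Their median log2 ratios were -1.04 and -0.76. Ddit3, Ddit4 and Ppp1r15a, all called at 3 h, are among the 10 only through their control level. Such a filter favours lower calls, so these counts are a description. Of the 19 enzymes, transporters and synthetases, 0 were at least 2-fold lower at 3 h and 1, Psph, at 6 h, with medians of -0.03 and -0.29. Over all genes the medians were -0.27 and -0.12, with 5.54% and 4.41% at least 2-fold lower. Of 3102 genes that averaged 50 CPM or more, 3.06% and 2.42% were. The called regulators other than Atf4 stood between 16.8 (Ddit4) and 38.6 CPM (Trib3) in the control. Of the 19 enzymes, transporters and synthetases, only Aldh18a1 (22.5 CPM) and Pycr1 (15.0 CPM) stood that low. Level and role were not separated. These role groups differ also in annotation. The 13 regulators had a median gene length of 5515 bp and 3 exons, and the 20 enzymes, transporters and synthetases 23206.5 bp and 12 exons, in GENCODE M21. The pentamer ATTTA stood in the 3′ untranslated region of 7 of the 13 regulators (53.8%), 9 of the 20 others (45%) and 66.2% of 7556 genes that averaged 10 CPM or more. RNA stability itself was not measured.

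**Figure D1:**
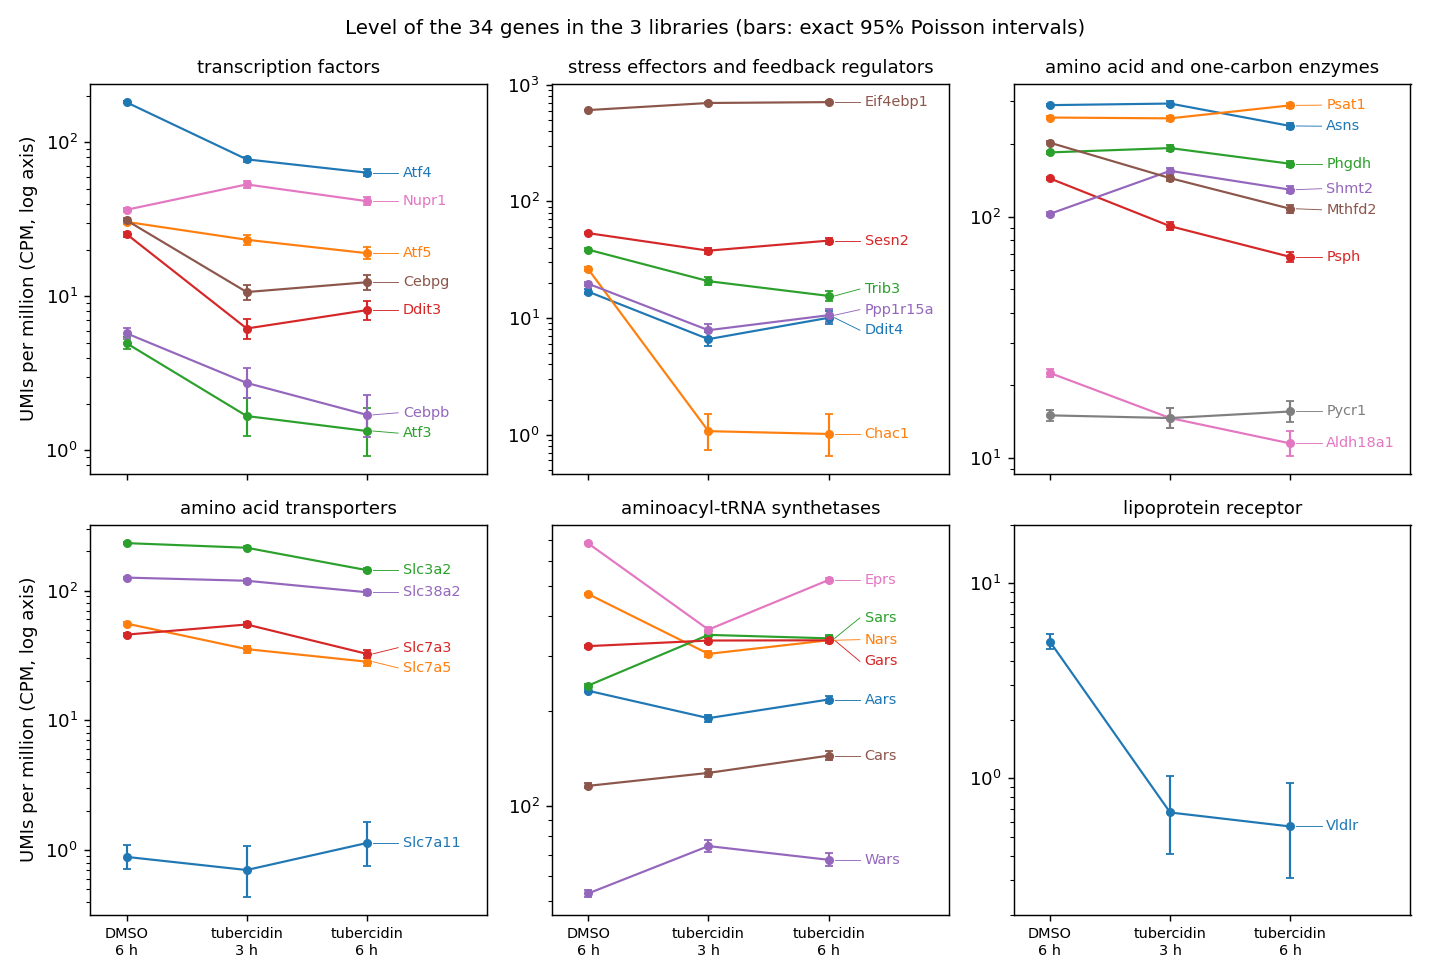
Level of each of the 34 genes in the DMSO, 3 h and 6 h libraries, in CPM on a log axis, 1 panel per role, with bars for exact 95% Poisson intervals. Chac1 stands at 26.2 CPM in the control and 1.07 and 1.01 CPM after tubercidin, while most enzymes and synthetases keep their order of magnitude.

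Among the transcription factors, Atf4 itself was lower at both times. Atf4 (chr15:80255184-80257541, plus strand, 3 exons) stood at 182, 77.6 and 63.6 CPM in the control, 3 h and 6 h libraries. ATF4 protein was not measured. The raw ratio was 2.35-fold lower at 3 h (2.25 to 2.45) and 2.86-fold lower at 6 h (2.72 to 3.02). With Atf4 itself counted, 2.22% and 0.837% of all genes had a ratio as low or lower. Ddit3 (chr10:127290774-127296288, plus strand), which encodes the pro-apoptotic partner CHOP, stood at 25.4, 6.19 and 8.14 CPM in the control, 3 h and 6 h. Its ratio was 4.10-fold lower at 3 h (3.53 to 4.79) and 3.12-fold lower at 6 h (2.70 to 3.62). At 3 h, 0.140% of all genes, Ddit3 itself counted, had a ratio as low or lower. The 6 h level of Ddit3 lay above its 3 h level.

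Cebpg, a C/EBP partner that dimerises with ATF4, followed at 31.2, 10.7 and 12.4 CPM. It was 2.92-fold lower at 3 h (2.60 to 3.29) and 2.52-fold lower at 6 h (2.24 to 2.85). A second identifier named Ddit3 overlaps the first and had 0 UMIs, and unnamed gene models overlap Cebpg on its strand, so reads of Cebpg could have been split between models. Atf5, a related factor that also responds to eIF2 phosphorylation, stood at 30.5, 23.3 and 19.1 CPM, within 2-fold of the control at both times.

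Atf3 and Cebpb were under the mean for calling. Atf3, a repressor and activator induced by many stresses, had 521, 50 and 33 UMIs in the control, 3 h and 6 h, or 4.97, 1.67 and 1.34 CPM. Cebpb, a C/EBP activator, had 604, 82 and 42 UMIs, or 5.76, 2.74 and 1.70 CPM. Both were lower in both tubercidin libraries, with raw folds of 2.97 (2.22 to 4.05) and 3.71 (2.61 to 5.45) for Atf3 and of 2.10 (1.66 to 2.68) and 3.38 (2.47 to 4.74) for Cebpb.

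Nupr1, a small stress-induced chromatin protein, went the other way among the factors. Its levels were 36.5, 53.3 and 41.5 CPM, with log2 ratios of 0.53 and 0.18. Both tubercidin libraries were above the control, and the 3 h value lay above 95.7% of all genes by ratio. The 2-fold threshold was not reached.

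Among the effectors, Chac1 had the lowest ratio of all 34 members. Chac1 (chr2:119351229-119354381, plus strand, 3 exons) degrades glutathione and is a direct readout of ATF4 activity in many cell types. Its UMIs numbered 2753, 32 and 25 in the control, 3 h and 6 h libraries, or 26.2, 1.07 and 1.01 CPM. The raw ratio was 24.5-fold lower at 3 h (17.3 to 35.9) and 25.9-fold lower at 6 h (17.5 to 40.1). On the log2 CPM + 1 scale the ratios were -3.72 and -3.76. The gene was not among the 29 because its mean over the libraries was under 10 CPM.

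Trib3, a pseudokinase that binds ATF4 and CHOP and dampens them, stood at 38.6, 20.7 and 15.5 CPM. It was 1.86-fold lower at 3 h (1.71 to 2.03) and 2.49-fold lower at 6 h (2.24 to 2.78), so it passed 2-fold at 6 h only. Ddit4, an inhibitor of mTORC1, stood at 16.8, 6.59 and 10.0 CPM and passed at 3 h only. Ppp1r15a, the GADD34 subunit that directs phosphatase to eIF2, had a like course at 19.7, 7.86 and 10.6 CPM. The log2 ratios of Ddit4 were -1.23 and -0.69 and those of Ppp1r15a -1.22 and -0.84. Whether the 3 h and 6 h libraries differ beyond the spread between cultures was not tested.

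Sesn2, a leucine sensor upstream of mTORC1, stood at 53.5, 37.8 and 46.1 CPM, within 2-fold of the control. Eif4ebp1, which encodes the translation repressor 4E-BP1, was at 608, 699 and 711 CPM, with log2 ratios of 0.20 and 0.23. Levels of Eif4ebp1 were thus slightly higher in both tubercidin libraries, and higher by more relative to the median gene (0.47 and 0.35).

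**Figure D2:**
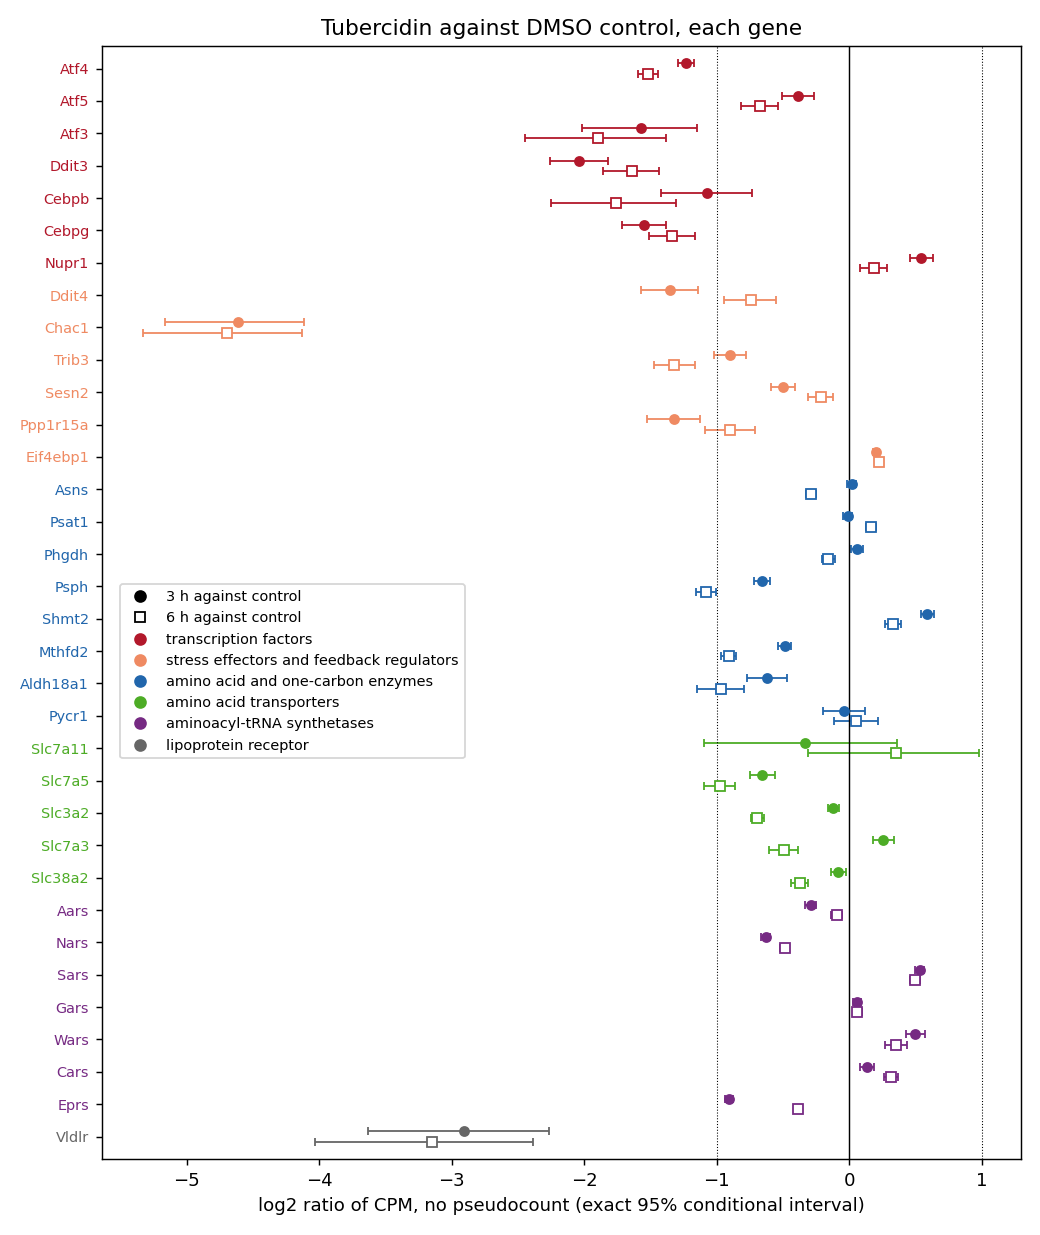
Log2 ratio of CPM without a pseudocount for each of the 34 genes, 3 h (filled circles) and 6 h (open squares) against the control, coloured by role, with exact 95% conditional intervals and dotted lines at 2-fold. The regulators at the top reach -4.62 and -4.70 for Chac1, and the enzymes, transporters and synthetases lie between -1.08 and 0.59.

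The amino acid and one-carbon enzymes had median log2 ratios of -0.02 and -0.22 and went both ways, from -0.65 to 0.59 at 3 h and from -1.07 to 0.33 at 6 h. Asns, asparagine synthetase and a standard ATF4 target (chr6:7675169-7693254, minus strand), was at 289, 293 and 237 CPM in the control, 3 h and 6 h. The log2 ratios were 0.02 (raw interval -0.01 to 0.06) and -0.29 (-0.33 to -0.25). By CPM, the 3 h value of Asns therefore did not differ from the control beyond counting error. Chac1 was 24.5-fold lower in the same libraries. By median-of-ratios and TMM scaling the 3 h log2 ratio of Asns was 0.26 and 0.21. By CPM it lay 0.29 above the median gene.

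Serine synthesis runs through Phgdh, Psat1 and Psph, and these did not move alike. Phgdh, which commits 3-phosphoglycerate to serine, was at 184, 192 and 165 CPM. Psat1, the aminotransferase of the next step, was at 257, 255 and 288 CPM. Psph, the phosphatase of the last step, was at 144, 91.2 and 68.1 CPM, with log2 ratios of -0.65 and -1.07. Psph was the 1 enzyme past 2-fold, at 6 h, with a raw fold of 2.11 (2.01 to 2.22), and lay just inside the threshold.

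The mitochondrial folate enzymes differed in sign. Shmt2, which takes a one-carbon unit from serine, was higher in both tubercidin libraries at 103, 155 and 129 CPM (log2 ratios of 0.59 and 0.33). Mthfd2, which acts next on that unit, was lower at 202, 144 and 108 CPM (-0.48 and -0.90). In proline synthesis, Aldh18a1, the first enzyme, was at 22.5, 14.7 and 11.5 CPM (-0.59 and -0.91), and Pycr1, the last, was at 15.0, 14.7 and 15.6 CPM (-0.03 and 0.05). Pycr1 intervals spanned 0 at both times (-0.19 to 0.12 and -0.11 to 0.21), whereas those of Aldh18a1 lay below 0.

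The amino acid transporters were near the control at 3 h and lower at 6 h. Over the 4 that averaged 10 CPM the median log2 ratios were -0.10 and -0.58, and none passed 2-fold. Slc7a5, the light chain of the leucine exchanger, was at 55.6, 35.4 and 28.3 CPM, with -0.95 at 6 h, just outside the threshold. Slc3a2, its heavy chain, was at 232, 214 and 143 CPM. Slc7a3, a cationic amino acid transporter, was at 45.7, 54.7 and 32.5 CPM, above the control at 3 h and below it at 6 h. Slc38a2, the SNAT2 neutral amino acid transporter, was at 126, 119 and 97.0 CPM. Slc7a11, the cystine transporter, had 93, 21 and 28 UMIs, under 2 CPM in each library, and its intervals spanned 0 (-1.09 to 0.36 and -0.31 to 0.98).

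The aminoacyl-tRNA synthetases had the same median log2 ratio at both times, 0.06, above the median gene, and none of the 7 passed 2-fold. Sars, for serine, was at 241, 349 and 340 CPM in the control, 3 h and 6 h, and Wars, for tryptophan, at 52.7, 74.5 and 67.4 CPM. Both were higher after tubercidin, with log2 ratios of 0.53 and 0.50 for Sars and of 0.49 and 0.35 for Wars. Gars, for glycine, was level at 321, 335 and 335 CPM, and Cars, for cysteine, stood at 116, 127 and 144 CPM. The other synthetases were lower.

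Nars, for asparagine, was at 470, 304 and 335 CPM, with log2 ratios of -0.63 and -0.49. Eprs, the bifunctional enzyme for glutamate and proline, was at 680, 363 and 521 CPM, and its -0.91 at 3 h was the nearest to 2-fold among the members outside it. Aars, for alanine, was at 232, 190 and 217 CPM (-0.29 and -0.09), close to the median gene (-0.02 and 0.03 relative to it). Other gene models overlap Aars, Wars, Cars, Mthfd2, Aldh18a1, Sesn2 and Slc7a11 on the same strand, so their counts could include or lose reads of a neighbour.

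**Figure D3:**
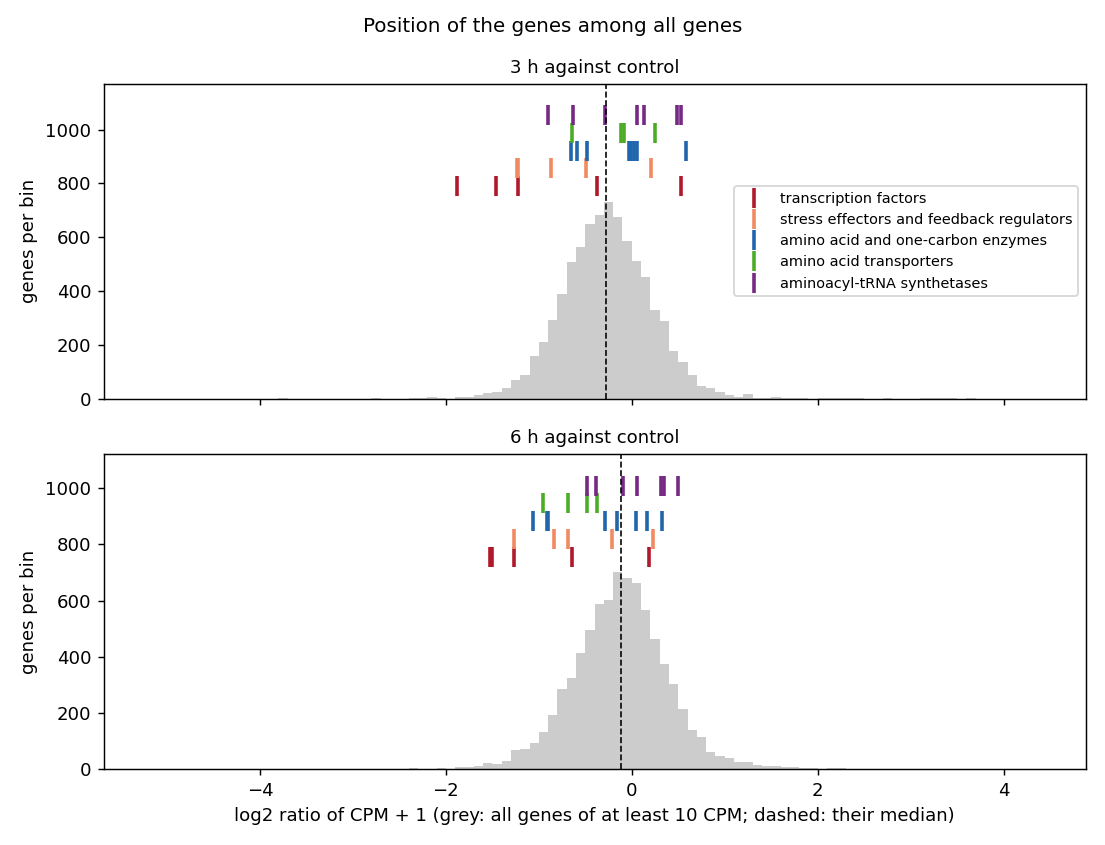
Histogram of the log2 ratio of CPM + 1 over 7884 genes (grey) with ticks for the 29 members that reached 10 CPM, 1 row of ticks per role, for 3 h and 6 h against the control; the dashed line is the median of all genes (-0.27 and -0.12). Ticks of Ddit3, Cebpg and Atf4 stand in the left tail at both times, and ticks of the synthetases lie on both sides of the median.

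Vldlr, the very low density lipoprotein receptor and a reported ATF4 target, was sparse but much lower after tubercidin. Its UMIs numbered 527, 20 and 14, or 5.02, 0.669 and 0.567 CPM. The raw ratio was 7.51-fold lower at 3 h (4.81 to 12.4) and 8.86-fold lower at 6 h (5.23 to 16.3). By log2 ratio with pseudocount it was at -1.85 and -1.94.

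The comparisons above share the control library, so the 3 h and 6 h ratios are not independent of each other. Set directly against 3 h, 0 of 29 members were at least 2-fold lower at 6 h and 0 at least 2-fold higher, against 0.165% and 1.64% of all genes. The members' median log2 ratio was -0.14 where the median gene was at 0.14. All 4 called transporters were below 0, from -0.73 for Slc7a3 to -0.29 for Slc38a2 by CPM, where 32.4% of all genes were below 0. They were also below 0 by median-of-ratios, TMM and UMIs per cell, but there the median gene was below 0 as well (-0.08, -0.07 and -0.40). Highest were Ddit4 at 0.54 (raw interval 0.33 to 0.89) and Eprs at 0.52 (0.49 to 0.56), with Ppp1r15a at 0.39 and Ddit3 at 0.35 behind them. Median-of-ratios and TMM scaling shifted the median gene by -0.22 and -0.21 in this comparison, and the sign of 8 of 34 members (Cebpg, Eif4ebp1, Psat1, Pycr1, Aars, Nars, Gars and Cars) changed with them. They also put 45 genes of all lower and 57 higher in place of 13 and 129. At 3 h against the control the shifts were 0.23 and 0.19, and Psat1, Pycr1, Slc3a2 and Slc38a2 changed sign. At 6 h against the control no member did.

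Per cell, without division by the library total, every member had fewer UMIs after tubercidin. Cells held means of 9.40, 0.981 and 0.536 UMIs of Atf4 in the 3 libraries. For Asns the means were 14.9, 3.71 and 2.00, and for Sars 12.4, 4.41 and 2.87. All 29 called members were at least 2-fold lower at both times on this scale, as were 98.9% and 99.2% of all genes, so it carries the depth gap as well as any loss of RNA.

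In cells thinned to 4000 UMIs each, a Chac1 UMI was found in 192 of 2031 control cells (9.45%, Clopper-Pearson interval 8.22 to 10.8), 10 of 2243 cells at 3 h (0.446%) and 10 of 2642 cells at 6 h (0.379%). Unthinned, the shares were 56.9%, 1.35% and 0.854%. Thinning left out 0, 122 and 284 shallower cells. The shares for Trib3 were 13.3%, 8.29% and 5.56%, and for Ddit3 10.3%, 2.90% and 3.26%. Asns was found in 65.2%, 68.2% and 60.5% of thinned cells, which followed its CPM. No cell type without these genes was present to set the share that free RNA alone gives. In barcodes of low rank, which hold free RNA, Chac1 was at 16.4, 0.468 and 1.42 CPM, Atf4 at 239, 73.4 and 80.7 CPM and Asns at 199, 248 and 183 CPM. The free RNA values of Chac1 rest on 57, 1 and 2 UMIs.

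Within the control library, regulators and enzymes were compared between cells. Thinned control cells with a UMI of Chac1, Trib3 or Ddit3 numbered 585, and 1446 had none. Of 28 other members with at least 50 UMIs, 24 were above 0 by log2 ratio in the cells with such a UMI, against 49.8% of genes, and 6 were at least 1.2-fold higher, against 10.3%. The interval lay above 0 for 8 of them, against 3.2% of genes, and these were Atf4, Atf5, Asns, Phgdh, Shmt2, Mthfd2, Slc3a2 and Aars. The shares past 1.2-fold and with an interval above 0 vary with a gene's UMIs. The genes were not matched to the members by level, so the 2 shares are not directly comparable. Atf4 stood at 206 CPM in cells with such a UMI and 163 CPM in those without (log2 ratio 0.34, 0.18 to 0.50), and Mthfd2 at 237 and 183 CPM (0.37, 0.22 to 0.52). The difference in Asns was smaller, 298 against 271 CPM (0.14), with its lower bound at 0.00507, and the lower bound of Shmt2 was 0.00585. Eprs, at 692 and 679 CPM, did not differ beyond counting error.

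The split was also read by each of its genes in the thinned cells, and differences between these readings were not tested. By a Chac1 UMI, 22 of 30 other members were above 0 and 14 at least 1.2-fold higher, against 47.8% and 16.1% of genes. By a Trib3 UMI, 26 of 30 were above 0 and 9 at least 1.2-fold higher, against 50% and 14.9%. By a Ddit3 UMI, 17 of 30 were above 0 and 4 at least 1.2-fold higher, against 49.3% and 17.4%, and the 8 enzymes had a median of -0.05. Without thinning, all 33 members were above 0 by Chac1, by Trib3 and by Ddit3, against 40%, 47.4% and 47.4% of genes. There 17, 15 and 9 were at least 1.2-fold higher, against 6.51%, 9.01% and 7.35%, and the enzyme median by Ddit3 was 0.13. Unthinned cells with such a UMI also held more UMIs. Cells of 1 library are not replicates, and these intervals do not cover differences between cultures.

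**Figure D4:**
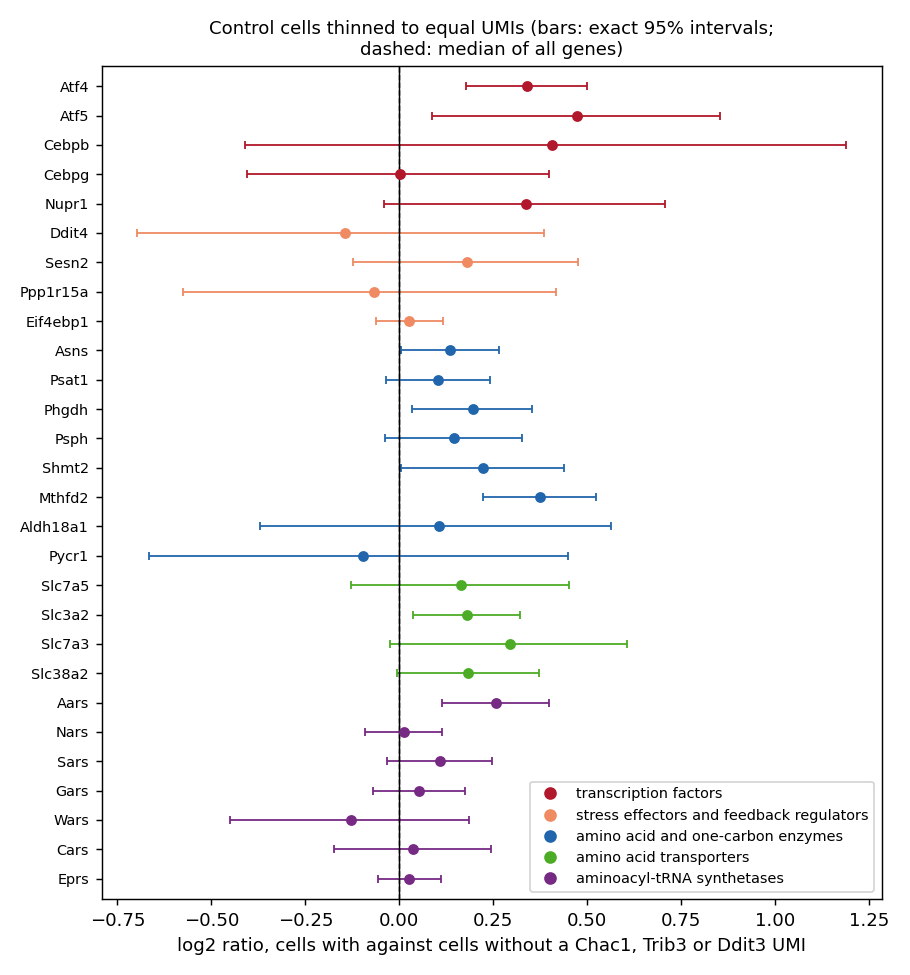
Log2 ratio of 28 members between control cells with (585) and without (1446) a UMI of Chac1, Trib3 or Ddit3, each cell thinned to 4000 UMIs, coloured by role, with exact 95% intervals and a dashed line at the median of all genes. The points of Atf4, Atf5 and Mthfd2 lie to the right with intervals above 0, while Eif4ebp1 and the synthetases other than Aars span 0.

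After tubercidin the same rule left fewer cells, 250 of 2243 at 3 h and 233 of 2642 at 6 h. Their make-up also changed. Chac1, Trib3 and Ddit3 UMIs were in 192, 271 and 210 control cells. The numbers were 10, 186 and 65 at 3 h and 10, 147 and 86 at 6 h. The split is therefore not the same comparison as in the control. At 3 h, 8 of 27 other members were at least 1.2-fold higher in cells with a UMI of any of these genes, against 16.5% of genes. At 6 h, 6 of 27 were, near the 19.5% of genes. Intervals lay above 0 for 7 of 27 at 3 h and 2 of 27 at 6 h, against 2.27% and 2.92% of genes, which were again not matched by level. Atf4 was higher in such cells at 3 h (log2 ratio 0.51, 0.20 to 0.80), and at 6 h it stood at 61.2 against 61.3 CPM, with an interval from -0.42 to 0.39. The 2 members with an interval above 0 at both times were Cebpg (log2 ratios of 0.99, 0.16 to 1.76, and 0.87, 0.12 to 1.54) and Nupr1 (67.0 against 49.3 and 60.1 against 41.2 CPM).

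Members also varied with the number of UMIs in a cell. In the control, the third of cells with fewest UMIs had less Atf4 than the third with most, 154 against 190 CPM (log2 difference -0.31, -0.37 to -0.25), and less Trib3 (33.9 against 41.4 CPM) and Eprs (603 against 723 CPM). Slc38a2 differed in the tubercidin libraries, where cells with few UMIs held more of it, 154 against 111 CPM at 3 h (0.47, 0.36 to 0.60) and 116 against 91.6 CPM at 6 h (0.34, 0.19 to 0.49). No member reached 2-fold between these cells, where 0.0367% of genes were lower in the control, 0.0791% higher at 3 h and 0.0127% lower and 0.0127% higher at 6 h, and 0 in the other directions.

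Genes around the module were read from lists of related pathways, and the counts are of listed genes that averaged 10 CPM or more. Of 15 eIF2 kinases, eIF2 subunits and phosphatase partners, 0 passed 2-fold at either time, with medians of -0.12 and -0.03. In that list, Eif2ak3, which encodes the kinase PERK, was at 16.2, 14.0 and 25.7 CPM, and Eif2s1, the phosphorylated eIF2 subunit, was at 341, 269 and 205 CPM. Of 15 other cytosolic synthetases and scaffold genes, 1 was at least 2-fold lower at each time, near the share of all genes (5.54% and 4.41%). Eef1e1, a scaffold protein of the multisynthetase complex, was at 78.5, 38.2 and 26.7 CPM, and Farsa, a phenylalanine synthetase subunit, at 145, 164 and 171 CPM.

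Mitochondrial synthetases gave 0 lower and 2 higher of 14 at 3 h, against 5.54% and 0.888% of all genes, and 1 lower and 0 higher at 6 h, against 4.41% and 2.33%. Yars2, for tyrosine, was at 27.5, 15.1 and 12.0 CPM. All 7 other amino acid transporters that reached the mean were below 0 at both times, where 72.6% and 60.3% of genes were, with 1 and 2 past 2-fold (5.54% and 4.41% of all genes) and medians of -0.71 and -0.81. Slc1a4, a neutral amino acid exchanger, was at 17.4, 8.63 and 5.19 CPM, and like Ddit3 it averaged 10 CPM only through the control. Of 14 other folate, transsulfuration and proline genes, 0 and 2 were at least 2-fold lower (5.54% and 4.41% of all genes), with Cth, which makes cysteine from cystathionine, at 92.2, 56.7 and 36.2 CPM and Cbs, the enzyme before it, at 19.6, 29.4 and 27.8 CPM.

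Of 10 other reported ATF4 targets, 1 was at least 2-fold lower at 3 h and 2 at 6 h (5.54% and 4.41% of all genes), with medians of -0.26 and -0.35. Herpud1, an endoplasmic reticulum protein also induced by unfolded proteins, was at 34.4, 7.13 and 3.57 CPM, above 10 CPM in the control alone, and Sqstm1, an autophagy receptor, at 60.7, 58.5 and 66.9 CPM. Of the 18 genes of the endoplasmic reticulum chaperone arm, 0 and 2 were at least 2-fold lower (5.54% and 4.41% of all genes). Xbp1, its transcription factor, was at 15.5, 12.1 and 5.71 CPM and the chaperone Canx at 238, 228 and 344 CPM. Xbp1 was called at 6 h, where it was under 10 CPM, and it reached the mean only through the control. Immediate-early genes also commonly have short-lived mRNA, a trait that was not measured here. Of the 20 listed, 14 did not reach the mean. Of the other 6, 4 and 3 were at least 2-fold lower (5.54% and 4.41% of all genes), with medians of -1.21 and -0.86. Among them, Ier2 was at 177, 70.8 and 36.6 CPM and Btg2 at 12.8, 10.3 and 9.48 CPM.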

How the data were processed

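Single-cell RNA of 3 libraries, 1 per group, was analysed. The authors deposited raw UMI counts. Per the file headers the tool was Cell Ranger 7.1.0, and per the submitters' processing notes the build was mm10. The annotation release and the counting of intronic reads are not given in the sources used here. The deposited matrices list 1817054, 617590 and 802370 barcodes with 115656427, 35374540 and 29353325 UMIs in the control, 3 h and 6 h, so no cell filter had been applied.

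A barcode was called a cell when its UMIs reached 0.1 of the value at percentile 99 among the 3000 richest barcodes, when it had 500 genes or more, and when mitochondrial UMIs made up 20% or less, a limit that removed 0, 7 and 1 barcodes. Called cells held 104892739, 29892000 and 24681924 UMIs, and 9.31%, 15.5% and 15.9% of UMIs lay outside them. A gene without a UMI could stand at up to 0.0286, 0.100 and 0.122 CPM (3 counts). No doublet caller was run and doublets were kept. Counts were summed over cells, and log2 ratios were taken of CPM + 1. Intervals are for the ratio without pseudocount (exact conditional), for levels (exact Poisson) and for shares (Clopper-Pearson). Free RNA was read from the barcodes at UMI ranks above 5000, to rank 15000.

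All 34 members are named, and of each other list the genes with the lowest and the highest 6 h ratio. Some items that these rules select are not reported here. The members and lists were chosen with earlier results of these data known. The list symbols Gcn1l1, Mars1, Pycr3 and Zscan4a were not found in the files. Gene structure was taken from GENCODE M21 (GRCm38), which holds 32158 of 32285 identifiers and all 34 members. Promoter sequences are RefSeq's (GRCm38.p6), with entries for 28 members and none for Eif4ebp1, Slc7a5, Slc7a3, Nars, Wars and Cars. In simulated counts for 7884 genes, 100% of 200 genes changed 3-fold were recovered in each comparison and 0 unchanged genes passed 2-fold; 96.7%, 94.2% and 96.2% of 1000 intervals held the true ratio at 3 h, at 6 h and between them. Alternatives covered cell limits, scaling (TMM from edgeR 4.0.16 in R 4.3.3), free RNA, pseudocount, low-count filter and thinning. The language was Python 3.11.15 with scipy 1.17.1, pandas 2.3.3 and numpy 2.4.6.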

Additional observations from a re-analysis of the deposited data

Results flagged for a closer look

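Phgdh and Slc7a3 lay above the control at 3 h and below it at 6 h, in 1 library each. Phgdh had log2 ratios of 0.0591 and -0.16, and Slc7a3 of 0.25 and -0.48. The difference between the times was not tested, and the 3 h group has a control of 6 h only.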

How the results depend on the processing

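No paired analysis was possible because each group has 1 library and the labels carry no replicate numbers; for the same reason no replicate could be left out. Counts of members at least 2-fold lower, 5 at 3 h and 5 at 6 h, were 29 and 29 by UMIs per cell. They were 1 and 2 with a mean of at least 50 CPM (17 members tested) and 8 and 9 of 34 with no filter. Of all genes, 98.9% and 99.2% were lower by UMIs per cell. The shares were 3.06% and 2.42% of 3102 genes at 50 CPM, and 3.35% and 2.77% of 25496 genes with no filter. The unfiltered counts add Atf3, Chac1 and Vldlr at 3 h, and those with Cebpb at 6 h. Between 6 h and 3 h, 2 members (Slc3a2 and Slc7a3) were lower by UMIs per cell in place of 0, against 3.12% of all genes. Without thinning, 20 of 31 members in place of 6 of 28 were at least 1.2-fold higher in control cells with a Chac1, Trib3 or Ddit3 UMI (14% of all genes in place of 10.3%), cells which then also held more UMIs. The cause of these changes beyond the altered scale, filter or depth was not tested. The counts of members past 2-fold stayed within 1.5 times of those reported under the other 10 settings, which covered cell limits, removal of cells above 2 times the median UMIs, 3 scalings, free RNA, cell weighting and the pseudocount. No member ratio past 2-fold changed sign under any setting. In the tubercidin libraries the ratios of Chac1, Vldlr, Atf3, Cebpb and Slc7a11 rest on 14 to 82 UMIs, which sets the width of their intervals.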
